A study of Homo sapiens with 6 samples.

Results

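The protein kinases that take a cell into mitosis and hold it there until every chromosome is attached were examined in HepG2 cells treated with polydatin (PD). They are the products of 10 genes chosen by name, CDK1, WEE1, PKMYT1, AURKA, PLK1, NEK2, AURKB, BUB1, BUB1B and TTK, and all 10 were found by Ensembl identifier and GENCODE symbol among the 28563 genes of the deposited table. HepG2 is a long-established line of human liver tumour cells. PD, a glucoside of resveratrol made by plants, was dissolved in DMSO. Cells in 3 dishes received PD at 336 µM by the sample labels, and cells in 3 dishes received DMSO alone, for 24 h each, with 1 poly(A)-selected library per dish. The dose given in the study's methods is lower than that of the labels. AURKA and PLK1 were also selected in the study from these same libraries, so their direction here is not independent evidence. The study also reported both falls by RT-qPCR and, for the proteins, by Western blot, which were not examined here.

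CDK1 is the kinase that drives entry into mitosis once cyclin B is bound. WEE1 and PKMYT1 phosphorylate CDK1 in its ATP-binding loop and keep it inactive, and phosphatases of the CDC25 family remove that phosphate. Aurora A (AURKA), polo-like kinase 1 (PLK1) and NEK2 work at centrosomes and on the spindle, whereas Aurora B (AURKB) at centromeres, BUB1, BUB1B (BubR1) and TTK (Mps1) correct and monitor the attachment of chromosomes to the spindle in the spindle checkpoint. Transcripts of many of these genes accumulate in G2 phase and mitosis, though the phases were not measured here. The level of such a gene in a bulk library depends on how many cells are in that window. Fewer cells in G2 phase and mitosis and less RNA per cell cannot be told apart in such libraries.

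Many genes of this class carry a CCAAT box and a cell cycle genes homology region (CHR) in front of their start, the latter being bound by MuvB complexes that repress or activate transcription through the cell cycle. The letters of these elements are shown because they are the best-known feature the genes share. The RefSeq promoter table (GRCh38.p14) held windows from 250 bases before to 50 bases after the start for 6 of the kinases, and AURKA, WEE1, PKMYT1 and TTK were not matched. In the stretches below, written 5′ to 3′ on the strand of the gene, capitals mark CCAAT or its reverse complement and the CHR form TTTGAA.
PLK1 (chr16:23678769-23678868, plus strand): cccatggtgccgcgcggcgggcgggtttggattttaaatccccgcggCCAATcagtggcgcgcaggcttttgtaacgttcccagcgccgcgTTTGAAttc
BUB1B (chr15:40160949-40161066, plus strand): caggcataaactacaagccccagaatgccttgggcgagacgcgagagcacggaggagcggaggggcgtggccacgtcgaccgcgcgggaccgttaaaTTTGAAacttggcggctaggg
CDK1 (chr10:60778448-60778477, plus strand): ccctttagcgcggtgagTTTGAAactgctc
BUB1 (chr2:110678064-110678183, minus strand): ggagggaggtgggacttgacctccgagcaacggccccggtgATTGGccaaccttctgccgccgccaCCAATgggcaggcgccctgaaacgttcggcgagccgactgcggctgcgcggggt
NEK2 (chr1:211675631-211675741, minus strand): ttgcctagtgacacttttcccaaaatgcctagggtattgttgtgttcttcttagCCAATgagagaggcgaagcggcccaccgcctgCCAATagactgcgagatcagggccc
AURKB (chr17:8210255-8210385, minus strand): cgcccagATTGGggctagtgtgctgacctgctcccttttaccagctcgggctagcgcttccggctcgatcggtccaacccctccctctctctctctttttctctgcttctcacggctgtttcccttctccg
In PLK1 the CCAAT box began 73 bases and TTTGAA 29 bases before the RefSeq start. TTTGAA began 23 bases before the start of BUB1B and 13 bases before the downstream start of CDK1 (position 60778478), and the windows of the CDK1 starts held further matches of both motifs that are not shown. BUB1 held the CHR form TTCGAA, which is its own reverse complement, from 1 base after its start, outside the stretch shown. In the windows searched, NEK2 and AURKB held CCAAT but neither CHR form. The RefSeq starts of AURKB (8210225 and 8210249) and PLK1 (23678889) lie inside the annotated genes, whose 5′ ends are at 8210600 and 23677656. The windows did not reach those ends, so the bases in front of them were not searched. The RefSeq start of BUB1B (40161069) and the downstream start of CDK1 also lie inside the annotated genes, which begin at 40161023 and 60778331. The TTTGAA shown for each (from 40161046 and 60778465) therefore lies inside the gene. Another TTTGAA of CDK1, not shown, lay in front of its gene (60778170 to 60778175). Searched on both strands over the whole window, CCAAT was found in 5 of the 6 kinases and in 39.7% of the 27305 genes of the RefSeq table, TTTGAA in 3 of the 6 and in 18.2%, and TTCGAA in 1 of the 6 and in 1.82%. No match of these motifs in the kinases overlapped another. These matches are letters in a window, and binding was not measured.

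The libraries held 16308476 to 18071632 fragments by the steps in the deposited FPKM (fragments on a gene scaled to its length and to the size of the library), and 362 to 4534 of them fell on any of the kinases in a library, so all 10 passed the minimum of 0.5 FPKM and were among the 14400 genes tested. Within groups no 2 libraries were duplicates, with a chi-square of 2.22 to 3.55 per gene, where counting noise alone gives about 1 and a PD against a DMSO library gave 47.2 to 55. The hepatocyte markers go against the name HepG2, which is used only as the labels give it, and the identity of the cells was not tested further. Of 20 hepatocyte genes listed as markers, 9 were found by symbol and analysed here. Only CPS1 reached 1 FPKM in both groups, and RBP4 reached it in PD alone (at most 0.479 FPKM in DMSO, 1.06 to 1.73 FPKM in PD). Among the others, APOA1, HNF4A, SERPINA1, FGA, FGG and TF had group means of at most 0.0963 FPKM. The summed level of the 9 genes was 222 to 229 FPKM in DMSO and 107 to 113 FPKM in PD, nearly all of it from CPS1. Of 12 mesenchymal and fibroblast genes, 10 were analysed and 6 reached 1 FPKM, with a sum of 38.1 to 40.2 FPKM in DMSO and 46.6 to 48.1 FPKM in PD, and 7 of 10 blood and endothelial genes summed to at most 0.718 FPKM in any library. The part of these markers in the kinase results was not tested.

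The kinases did not change as a block. After PD 7 of the 10 were lower, AURKB and PKMYT1 were higher, and NEK2 did not reach the threshold (limma on log2(FPKM + 1), adjusted p of at most 0.05 over all genes tested). These 9 calls stand beside a transcriptome in which 58.1% of all tested genes were called by the same rule, 26.2% as lower and 31.9% as higher. Upper quartile scaling gave 8 lower and 2 higher kinases and turned the split over all genes to 32.5% lower and 26.4% higher. With a change of at least 2-fold added, PLK1 and AURKA were the 2 downregulated kinases and no kinase was upregulated, where 1.57% of all genes were called as lower and 2.04% as higher. This background depends on the scale, since the genes called at 2-fold in either direction went from 520 to 1248 with a pseudocount of 0.1 and to 1734 with limma voom on fragments, while the kinases called stayed at 2. The 3 PD libraries lay below all 3 DMSO libraries in 7 kinases and above them in 2, against 29.9% and 35.6% of all genes, or 65.4% in either direction. The median log2 fold change of the 10 kinases was -0.53, beside 0.01 over all genes tested.

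**Figure D1:**
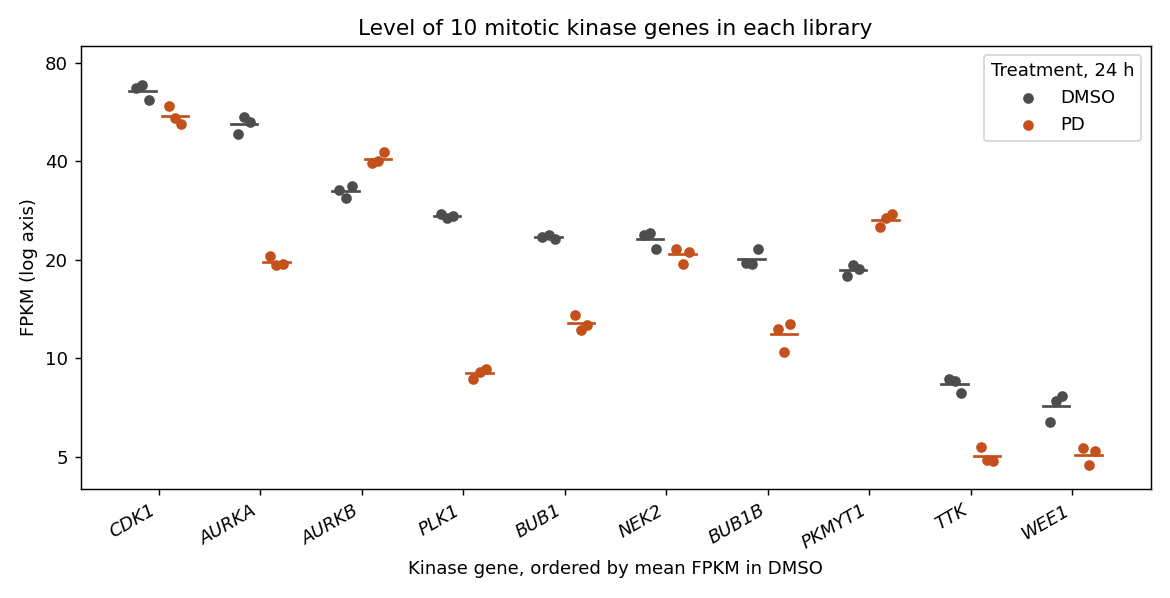
FPKM of the 10 kinase genes in each library on a log axis, ordered by mean level in DMSO; each point is a library (3 DMSO, 3 PD) and each line a group mean. PLK1 and AURKA show the widest gaps, AURKB and PKMYT1 are the genes with PD above DMSO, and NEK2 is the gene whose groups overlap.

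PLK1 had the largest change of the 10. This kinase is needed for centrosome maturation, activation of CDC25C and the end of mitosis, and its gene lies on chromosome 16 of hg38 from 23677656 to 23690367 on the plus strand. Its level was 27.6, 26.9 and 27.3 FPKM in DMSO replicates 1, 2 and 3 and 8.64, 9.08 and 9.29 FPKM in PD replicates 1, 2 and 3. The groups were far apart relative to their spread, with 27.2 ± 0.371 FPKM in DMSO and 9.003 ± 0.333 FPKM in PD (SD, n = 3 each). On the log2 scale PLK1 changed by -1.50 ± 0.04 (SE; adjusted p 1.4e-06, limma). It was the 41st largest fall among the 14400 genes tested. Exons of an antisense gene, ENSG00000261266, cover 11.6% of the exon bases of PLK1, and ERN2, which shares a few bases, had at most 0.00815 FPKM in either group mean.

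AURKA, the Aurora kinase of the centrosome and spindle poles, fell almost as far. It lies on chromosome 20 from 56369389 to 56392337, and no other annotated exon overlaps it. Libraries of DMSO replicates 1, 2 and 3 held 48.3, 54.6 and 52.6 FPKM and those of PD replicates 1, 2 and 3 held 20.5, 19.3 and 19.4 FPKM. The lowest DMSO library was thus more than 2-fold above the highest PD library. Means were 51.8 ± 3.19 FPKM in DMSO and 19.7 ± 0.692 FPKM in PD (SD, n = 3 each), a log2 change of -1.35 ± 0.05 (SE; adjusted p 3.2e-06, limma). This was the 59th largest fall of all genes tested.

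NEK2, which separates the centrosomes at the start of mitosis and lies on chromosome 1 from 211658657 to 211675630, differed least. It had 23.8, 24.2 and 21.5 FPKM in the DMSO libraries and 21.7, 19.5 and 21.2 FPKM in the PD libraries, in the order of the replicates. DMSO replicate 3 lay below PD replicate 1, so the groups overlapped. The log2 fold change of -0.15 (95% interval -0.29 to -0.01) had an adjusted p of 0.058 (limma). Without DMSO replicate 3 the value was -0.20 with an adjusted p of 0.018, so including that library changed the call. NEK2 also passed as lower with limma voom on fragments (-0.16, adjusted p 0.029), median-of-ratios scaling (-0.18, adjusted p 0.029) and upper quartile scaling (-0.23, adjusted p 0.0068).

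Of the kinases at the centromere and in the checkpoint, BUB1, BUB1B and TTK fell together and AURKB rose. BUB1, which phosphorylates histone H2A at centromeres and recruits other checkpoint proteins to kinetochores, lies on chromosome 2 from 110637528 to 110678063. It had 23.4, 23.8 and 23.1 FPKM in DMSO and 13.6, 12.2 and 12.7 FPKM in PD, so that each PD library was well below each DMSO library. On the log2 scale it changed by -0.82 ± 0.05 (SE; adjusted p 1.1e-05, limma).

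BUB1B encodes BubR1, the part of the mitotic checkpoint complex that holds back the anaphase-promoting complex, on chromosome 15 from 40161023 to 40221123. Its DMSO libraries had 19.6, 19.4 and 21.5 FPKM and its PD libraries 12.3, 10.5 and 12.7 FPKM. The spread between its PD libraries was the widest of the 10 kinases, with a coefficient of variation of 10.1%, but the groups did not overlap. The log2 fold change was -0.72 (standard error 0.08, adjusted p 0.00016, limma). The readthrough gene BUB1B-PAK6 shares 4.86% of the exon bases of BUB1B on the same strand, and PAK6 itself had at most 0.0148 FPKM in either group mean.

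TTK encodes Mps1, the kinase that starts the checkpoint at unattached kinetochores, on chromosome 6 from 80003887 to 80042527. It was expressed at a low level, with 8.66, 8.52 and 7.86 FPKM in DMSO and 5.35, 4.91 and 4.85 FPKM in PD. No PD library reached the lowest DMSO library. It changed by -0.63 ± 0.06 on the log2 scale (SE; adjusted p 8.1e-05, limma).

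AURKB, the catalytic subunit of the chromosomal passenger complex, lies on chromosome 17 from 8204733 to 8210600 and was higher in PD. It had 32.7, 30.9 and 33.5 FPKM in DMSO and 39.6, 40.02 and 42.6 FPKM in PD, so all PD libraries were above all DMSO libraries. The means of 32.4 ± 1.35 and 40.8 ± 1.64 FPKM (SD, n = 3 each) gave a log2 change of 0.32 ± 0.04 (SE; adjusted p 0.00064, limma). The rise was small and ranked 3253 among all genes tested.

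CDK1 itself, on chromosome 10 from 60778331 to 60794852, was the most abundant of the 10 in both groups and changed little. Its DMSO libraries had 66.8, 68.5 and 61.4 FPKM and its PD libraries 58.9, 54.2 and 52.1 FPKM. The groups were close but did not overlap, and PD cells kept 84% of the DMSO mean. The log2 fold change was -0.25 (standard error 0.06, adjusted p 0.0081, limma), and the fall ranked 3587 among all genes tested.

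The brakes on CDK1 moved in opposite directions. WEE1, the nuclear kinase of the pair, on chromosome 11 from 9573670 to 9593457, had 6.40, 7.39 and 7.66 FPKM in DMSO and 5.31, 4.72 and 5.20 FPKM in PD. The PD libraries were all lower, with a log2 change of -0.42 ± 0.07 (SE; adjusted p 0.0021, limma). PKMYT1, the membrane-bound kinase of the pair, on chromosome 16 from 2968024 to 2980479, had 17.9, 19.3 and 18.8 FPKM in DMSO and 25.2, 26.8 and 27.5 FPKM in PD. All its PD libraries were higher, by 0.48 ± 0.05 on the log2 scale (SE; adjusted p 0.00011, limma). On the opposite strand, exons of PAQR4 cover 24.7% and those of KREMEN2 7.18% of the exon bases of PKMYT1, and the library kit does not mark strand, so fragments in those stretches cannot be told apart. PAQR4 had 15.4 ± 2.6 FPKM in DMSO and 18.9 ± 0.982 FPKM in PD (SD, n = 3 each). Its groups overlapped, and its log2 difference of 0.29 had an adjusted p of 0.048 (limma), a call lost with median-of-ratios (adjusted p 0.067) and upper quartile scaling (adjusted p 0.15). KREMEN2 had 1.44 and 1.07 FPKM. The part of these neighbours in the value of PKMYT1 was not tested.

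**Figure D2:**
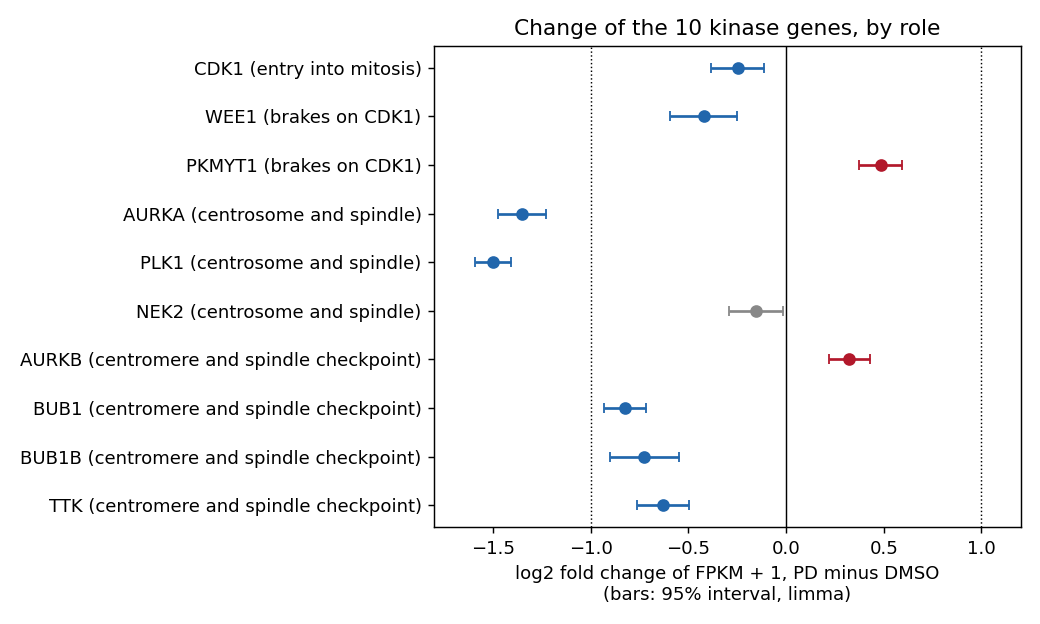
log2 fold change (PD minus DMSO, FPKM + 1) of each kinase by role, with 95% intervals from limma; blue is lower, red higher and grey short of an adjusted p of 0.05, and dotted lines mark 2-fold. PLK1 (-1.50) and AURKA (-1.35) lie beyond the 2-fold line, and AURKB (0.32) and PKMYT1 (0.48) lie on the other side of 0.

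An exact two-sided permutation test on a single gene cannot give a p under 0.10 with 3 against 3 libraries. It gave 0.10 for all kinases but NEK2, where it gave 0.20.

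The order of the levels per length also changed. In DMSO it ran CDK1, AURKA, AURKB, PLK1, BUB1, NEK2, BUB1B, PKMYT1, TTK and WEE1, from 65.5 to 7.15 FPKM. BUB1 and NEK2 were the neighbours whose libraries overlapped. In PD it ran CDK1, AURKB, PKMYT1, NEK2, AURKA, BUB1, BUB1B, PLK1, WEE1 and TTK, from 55.1 to 5.04 FPKM, and here NEK2 and AURKA, BUB1 and BUB1B, and WEE1 and TTK overlapped. PLK1 went from rank 4 to rank 8, AURKA from 2 to 5 and PKMYT1 from 8 to 3.

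To ask whether pairs of kinases changed by different amounts, the level of each relative to the other, as a difference in log2(FPKM + 1), was compared between groups for 6 pairs. AURKA was above AURKB by 0.55, 0.80 and 0.64 in the DMSO libraries and below it by a difference of -0.92, -1.02 and -1.10 in the PD libraries, so the Aurora kinases traded places in every library. The shift was -1.67, where the pooled SD was 0.111, with an exact permutation p of 0.10 (adjusted p 0.20 over the 6 pairs), the smallest this design can give. In FPKM, the mean of AURKA was 1.6 times that of AURKB in DMSO and 0.484 times in PD. WEE1 relative to PKMYT1 shifted by -0.91 and PLK1 relative to CDK1 by -1.25, also without overlap between groups and with the same smallest p. For the remaining 3 pairs the groups overlapped on this scale. BUB1 relative to BUB1B shifted by -0.10 (exact permutation p 0.30), and differences between single PD and DMSO libraries ran from -0.29 to 0.10. CDK1 relative to WEE1 shifted by 0.17 (library differences -0.10 to 0.42) and AURKA relative to PLK1 by 0.15 (-0.01 to 0.37), each with an exact permutation p of 0.20. For AURKA and PLK1 the overlap depended on the 1 added to FPKM. As a plain ratio of FPKM, every PD library lay above every DMSO library, and with a pseudocount of 0.1 the shift was 0.20. At this number of libraries, unequal changes within these 3 pairs were not detectable, which does not show that they were equal.

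**Figure D3:**
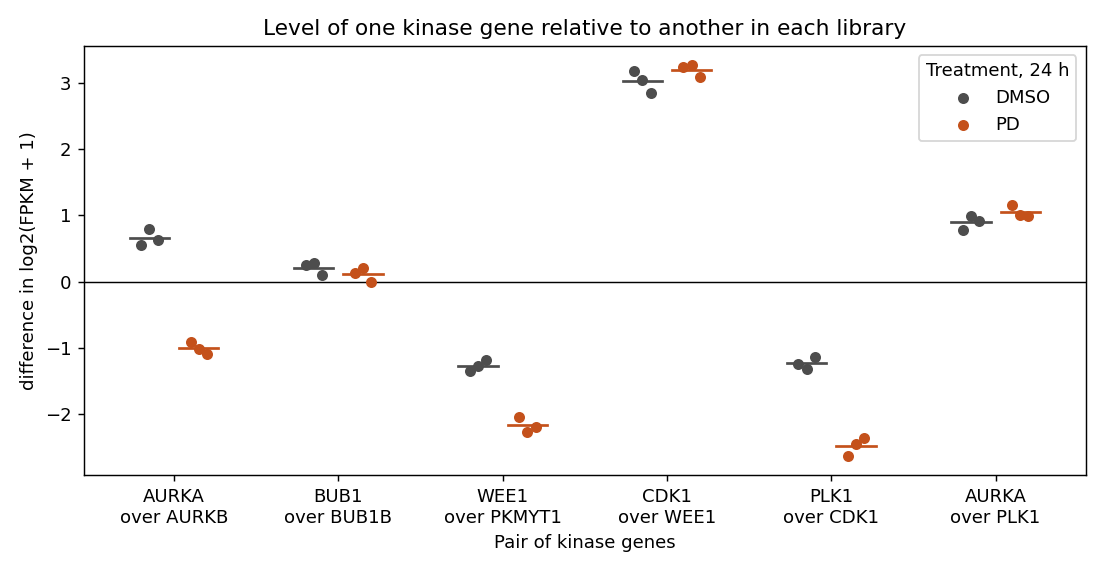
Difference in log2(FPKM + 1) between the genes of 6 pairs in each library; points are libraries and lines group means. AURKA over AURKB moved from above 0 in DMSO to below 0 in PD, WEE1 over PKMYT1 and PLK1 over CDK1 fell, and the other 3 pairs overlapped.

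The activators and binding partners of the kinases were taken from lists of known members. Among 14 genes that form or switch the CDK1 complex, 6 were lower, 4 were higher and 4 did not pass the test, with a median log2 fold change of -0.13, beside 26.2% lower and 31.9% higher over all genes tested. With upper quartile scaling 8 were lower and 1 higher. CCNB1, the main cyclin of CDK1, had 64.3 ± 1.03 FPKM in DMSO and 31.0 ± 0.174 FPKM in PD (SD, n = 3 each). It fell by 1.03 on the log2 scale (adjusted p 1.6e-06, limma), and CKS2 (-0.61), CCNB2 (-0.53) and CCNA2 (-0.24) fell as well. CDK1 messenger was thus 0.938 to 1.07 times that of CCNB1 in the DMSO libraries and 1.67 to 1.90 times in the PD libraries. Relative to CCNB2 it was 2.20 to 2.33 times in DMSO and 2.63 to 2.97 times in PD. Relative to CCNA2 the ranges overlapped, with 1.508 to 1.562 times in DMSO and 1.475 to 1.628 times in PD. These ratios are a description chosen after the values were seen. Of the phosphatases that release CDK1, CDC25A rose by 0.22 (adjusted p 0.013) and CDC25B by 0.16 (adjusted p 0.012, limma), but both calls were lost with upper quartile scaling (0.14 and 0.07, adjusted p 0.078 and 0.21). CDC25C had 5.01 FPKM in DMSO and 4.72 FPKM in PD (adjusted p 0.27), and passed as lower with upper quartile scaling (-0.14, adjusted p 0.048). MASTL, the kinase that restrains the phosphatase opposing CDK1, rose by 0.19.

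Partners of the Aurora kinases and PLK1 were mostly lower, with 10 of 14 lower, 2 higher and 2 short of the test, and a median of -0.40, again beside 26.2% lower and 31.9% higher over all genes. The subunits that bind AURKB in the chromosomal passenger complex all fell, INCENP by 0.79 on the log2 scale (from 39.9 ± 0.914 to 22.6 ± 1.02 FPKM, SD, n = 3 each), CDCA8 by 0.57 and BIRC5 by 0.39, while AURKB rose. The level of AURKB was 0.765 to 0.843 times that of INCENP in DMSO libraries and 1.69 to 1.99 times in PD libraries, again described without a test. TPX2, which activates AURKA on the spindle, had 85.8 ± 3.2 FPKM in DMSO and 56.4 ± 0.182 FPKM in PD (SD, n = 3 each) and fell by 0.60 on the log2 scale, and BORA, the cofactor through which AURKA activates PLK1, fell by 0.51. AJUBA (-1.16) and PRC1 (-0.77), a spindle midzone protein that PLK1 phosphorylates, were among the largest falls. MYBL2 (0.82) and HASPIN (0.41), the kinase whose mark on histone H3 brings AURKB to centromeres, were the 2 that rose, and HASPIN lies inside ITGAE.

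Of 12 partners of the checkpoint kinases, 5 were lower, 4 higher and 3 not called, with a median of -0.12. The higher count was near the 31.9% of all genes, and 26.2% of all genes were lower. CDC20, the activator of the anaphase-promoting complex that the checkpoint inhibits, fell from 64.9 ± 2.3 to 33.3 ± 1.26 FPKM (SD, n = 3 each; log2 fold change -0.94, adjusted p 4.7e-06, limma). NDC80 (-0.73), KNTC1 (-0.47) and BUB3 (-0.47), the partner of BUB1 and BUB1B, fell. ZWINT (0.43), MAD1L1 (0.39) and SPC25 (0.34) rose, and MAD2L1 had 10.8 FPKM in DMSO and 9.73 FPKM in PD with an adjusted p of 0.060 (limma). It passed as lower with voom (-0.15, adjusted p 0.036), median-of-ratios (-0.16, adjusted p 0.035) and upper quartile scaling (-0.22, adjusted p 0.0078).

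Of 19 listed regulators of mitotic transcription, which include the inhibitor CDKN1A besides transcription factors and their partners, 18 were tested. Of these, 6 were lower, 4 higher and 8 not called, with a median of -0.09. The share called was near the 58.1% of all genes, so the count does not set these regulators apart, and upper quartile scaling gave 11 lower and 4 higher. FOXM1, an activator of G2 phase genes, had 41.0 ± 1.77 FPKM in DMSO and 39.5 ± 1.03 FPKM in PD (SD, n = 3 each; log2 fold change -0.05, adjusted p 0.33, limma), and passed as lower with upper quartile scaling (-0.13, adjusted p 0.035). MYBL2 rose as given above, and CDKN1A, the inhibitor p21, had 50.1 ± 2.1 FPKM in DMSO and 111 ± 8.41 FPKM in PD (SD, n = 3 each) and rose by 1.13 on the log2 scale. E2F7 (0.73) rose and E2F4 (-0.54), LIN9 (-0.50) and NFYB (-0.41), a subunit of the factor that binds CCAAT, fell. Of the 6 kinases with a promoter window, those with a CHR form had log2 fold changes from -1.50 (PLK1) to -0.25 (CDK1), and those without had -0.15 (NEK2) and 0.32 (AURKB), a description of 6 genes with no test. BUB1 (-0.82) counts among the former only through TTCGAA after its start. In the 100 bases before the start it held neither form, and the 2 sets then overlap. AURKB counts among those without only by windows that lie inside its annotated gene, and no CHR form besides TTTGAA and TTCGAA was searched.

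Genes of S phase went the other way from most of the kinases. All 34 were tested, 23 were higher, 6 lower and 5 not called, where 31.9% of all genes were higher and 26.2% lower, and the median log2 fold change was 0.35. CDC6, which loads the replicative helicase, had the largest rise on the log2(FPKM + 1) scale (1.15), followed by GINS4 (0.94) and CCNE1 (0.63). In FPKM, CDC6 went from 17.35 to 39.59 and GINS4 from 2.31 to 5.35, a low level at which this scale understates the change. MCM2 (-0.40), MCM5 (-0.33) and POLA1 (-0.23) fell. Exons of CCNA2, CDC25C, MASTL, AJUBA, BORA, PRC1, HASPIN, MAD1L1, FOXM1, CDKN1A, GINS4 and MCM2 overlap other annotated genes, so their values are less certain.

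**Figure D4:**
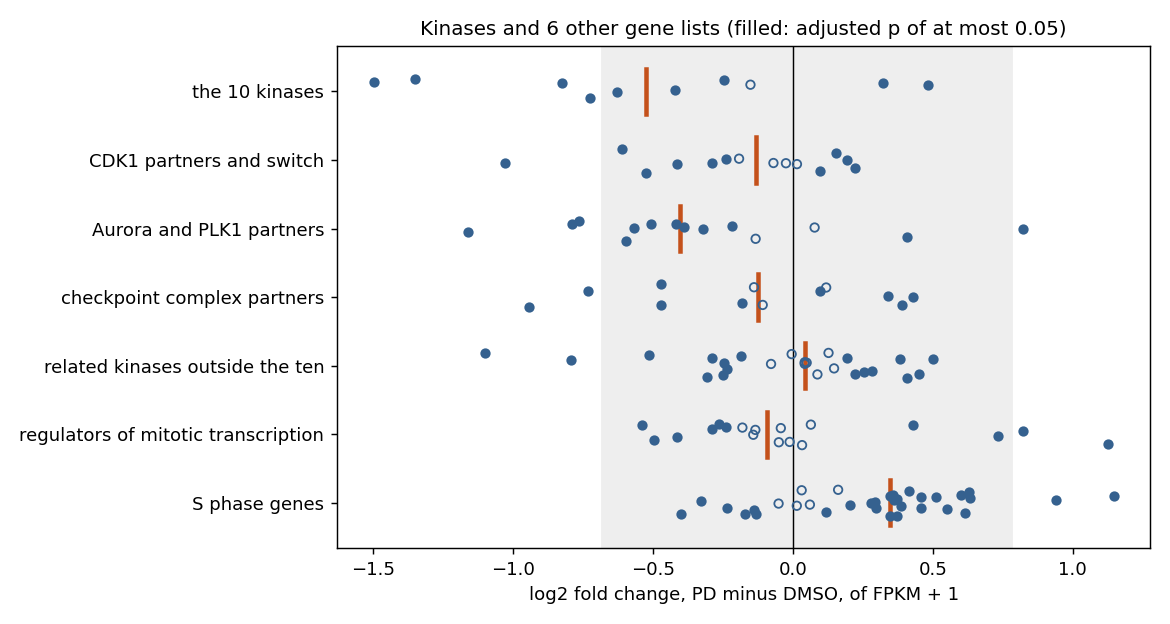
log2 fold change (PD minus DMSO, FPKM + 1) of each tested gene in the 10 kinases and 6 other lists; filled points have an adjusted p of at most 0.05, orange bars are list medians, and the grey band holds the 5th to 95th percentile of all genes tested (-0.68 to 0.78). Medians run from -0.53 for the kinases to 0.35 for the S phase genes. CDK7, MASTL, HASPIN and MYBL2 are shared between lists.

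By the rule for similar profiles, the genes nearest to the median profile of the 10 kinases over the 6 libraries were EIF4B, MDN1, ADNP, CKAP5 and MET, with root mean square differences of 0.0166 to 0.0248 in log2(FPKM + 1) among the 7565 genes that averaged 5 FPKM or more. Their log2 fold changes were -0.53 to -0.50, which is the middle of a list whose own members ran from -1.50 to 0.48.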

How the data were processed

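The authors mapped read pairs to hg38 (HISAT2), assigned them to genes (HTSeq 0.6.0, as the submitters' processing notes give it) and deposited FPKM for 28563 genes in 6 libraries; the annotation release and strand setting are not given in the sources used here. Groups and replicate numbers were taken from the sample titles. All 6 value columns were used. The replicates were separate dishes of 1 cell line, so p-values measure the spread between dishes.

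Here log2(FPKM + 1) was fitted with limma 3.58.1 in R 4.3.3 (PD against DMSO, no covariates, intensity-dependent prior variance) for the 14400 genes that averaged 0.5 FPKM or more, with Benjamini-Hochberg adjustment over all of them. Genes were called where the adjusted p did not exceed 0.05, and more strictly where the change also reached 2-fold. Fold changes on this scale understate those of genes with low FPKM. Permutation tests used scipy 1.17.1 and were two-sided. Whole fragments were worked back from the FPKM steps with exon lengths of GENCODE release 44 for 13420 genes, and with a length found from the values for 15143, within 0.01 of a whole number. They describe depth and enter the limma voom alternative; counting error is the only error they cover. The fit was tested on simulated data.

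The kinases, lists and tests were chosen with earlier results of these data known. Genes named besides the 10 kinases were set direct partners, up to 3 of the largest called rises and falls of each list, and the 5 genes nearest to the kinases' median profile. Exceptions are named as such. Alternatives were a pseudocount of 0.1, no filter, the replicate number as a block, each library left out, limma voom on fragments (at least 10 in 3 libraries), median-of-ratios and upper quartile scaling, and limma's treat test beyond 2-fold.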

Additional observations from a re-analysis of the deposited data

How the results depend on the processing

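PLK1 and AURKA were called as lower in all 13 alternative fits, and no kinase changed direction in any of them. The other kinases called at an adjusted p of at most 0.05 kept their call in every fit but treat, which asks for a change beyond 2-fold and left 0 higher and 2 lower kinases and 0 genes in either direction of each of the 6 other lists. NEK2 passed the threshold with limma voom (-0.16), median-of-ratios scaling (-0.18), upper quartile scaling (-0.23) and without DMSO replicate 3, and the cause was not tested. The median of the kinases was -0.60 with a pseudocount of 0.1, -0.61 with voom and -0.60 with upper quartile scaling, under which the median of all genes was -0.05. Upper quartile scaling also gave 1 higher gene among the CDK1 partners, 5 among the related kinases and 11 lower regulators, and changed the calls of CDC25A, CDC25B, CDC25C, MAD2L1 and FOXM1 as given in the report, and the share of all genes called as higher went from 31.9% to 26.4%, with 32.5% lower. Without the filter 5 related kinases were higher, and leaving out single libraries gave 5 to 7, with 5 without DMSO replicate 1 or 2, against 8 with all libraries. Over all genes, the calls at 2-fold numbered 520 with the settings of the report, 1248 with a pseudocount of 0.1, 1734 with voom and 101 with treat. In the 100 bases before the start, CCAAT was found in 4 kinases, TTCGAA in 0 and either CHR form in 3. Libraries with the same replicate number did not deviate together (correlations of -0.03, -0.005 and 0.09), so the numbers were not taken as pairs. With the replicate block the counts of kinases stayed at 2 higher and 7 lower, and the calls over all genes went from 8368 to 8032. In this balanced design the block cannot move a difference in means, so it bears only on the error. The 3 libraries per group leave exact tests of single values unable to pass 0.05.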

Other observations

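Of 26 related kinases, 25 were tested, and 8 were higher, 9 lower and 8 not called, at a median of 0.04 on the log2 scale. CDK7 and MASTL are also counted among the CDK1 partners, and HASPIN among the Aurora and PLK1 partners. The higher count was at the share of all genes, 31.9%, with 26.2% of all genes lower, and it was 5 without DMSO replicate 1, without DMSO replicate 2, without the filter or with upper quartile scaling. Among the polo-like kinases, PLK2, a stress-responsive member, fell from 14.6 to 7.99 FPKM (log2 fold change -0.79, adjusted p 0.00014, limma) and PLK4, which starts centriole duplication, fell by 0.52 (adjusted p 0.00051), whereas PLK3 rose by 0.28 (adjusted p 0.035), a call lost with upper quartile scaling (0.21, adjusted p 0.10). AURKC, the Aurora kinase of germ cells, had means of 0.0604 FPKM in DMSO and 0.0203 FPKM in PD and was not tested. In the NEK family, NEK9, an activator of NEK6 and NEK7 downstream of PLK1, rose by 0.50 and NEK6 fell by 0.25 (adjusted p 0.0020, limma). NEK7 rose by 0.22 (adjusted p 0.040), NEK1 by 0.25 (adjusted p 0.044) and NEK11 by 0.38 (adjusted p 0.0039, limma). The calls of NEK7 and NEK1 were lost with median-of-ratios and upper quartile scaling. NEK6 was the only NEK gene of the list called lower. MELK rose by 0.45. CDK6, a kinase of G1 phase, had the largest fall of the list, from 95.5 ± 10.4 to 43.99 ± 4.8 FPKM (SD, n = 3 each; log2 fold change -1.10, adjusted p 8e-05, limma). Exons of CDK6, NEK9, NEK11, PLK3, CHEK1, CHEK2, CDK2 and CDK4 overlap other annotated genes. The kinases CHEK1, CHEK2, CDK2 and CDK4 were not called, with log2 fold changes of 0.04, -0.005, 0.04 and 0.05, and the sign of CHEK1, CDK2 and CDK4 turned with upper quartile scaling (-0.04, -0.04 and -0.03, adjusted p 0.45, 0.52 and 0.57, limma). PLK3, AURKC, NEK1, NEK6, NEK7, NEK11, CHEK1, CHEK2, CDK2 and CDK4 were chosen after their values were seen.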
